A study of Mus musculus with 14 samples.

Results

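The genes described are 7 genes of cholesterol synthesis and of its control, Hmgcs1, Idi1, Fdps, Sqle, Cyp51, Srebf2 and Insig1, in the lungs of mice that had received carbon fibre. They were taken by name, as the probes whose RefSeq accession belongs to one of these symbols, and 8 probes on the array did. They are 7 of 30567 genes tested, of which 17287 had a symbol and the others were probes without one. All 7 lay well above background on all 14 arrays with the probe used. None of them takes up lipoprotein cholesterol, so uptake was described from a separate list of 12 uptake and transport genes.

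RNA of whole lung from male C57BL/6N mice was measured on 14 one-colour arrays, 1 array per mouse, 1 month after a dose into the trachea. VCF was carbon fibre before recycling (n = 3), CCF was the fibre after carbonization (n = 3) and RCF the fibre after firing (n = 3), each at 200 µg per mouse, and control mice had received the PBS vehicle (n = 5). The labels call the samples independent and give no age. In whole-lung RNA, fewer cells of a type and less RNA per cell cannot be told apart.

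Cells build cholesterol from acetyl-CoA through the mevalonate pathway, which passes from HMG-CoA to isoprenoid units, joins them into squalene, and closes and trims the ring. The transcription factor SREBP-2, made from Srebf2, drives nearly all of these enzymes. When sterols are plentiful, INSIG proteins hold the SREBP precursors in the endoplasmic reticulum, and when sterols run low the precursors move to the Golgi, are cut by 2 proteases and enter the nucleus. In lung, alveolar type 2 cells make surfactant, which contains cholesterol, and macrophages clear it.

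The 5 enzymes of the set varied together from array to array, and Insig1 ran opposite to them, as given below, so the promoters of Hmgcs1, Cyp51 and Insig1 are printed first. The table of RefSeq promoters used here (GRCm38.p6) matched 5 of the 7 genes by symbol. Each is 300 bases, 250 before and 50 after the start of the gene, read along the gene's strand. Capitals mark matches, on either strand, to the sterol regulatory element TCACNCCAC (to which SREBP proteins bind), the box of NF-Y spelled CCAAT, the box of Sp1 (the GC box) spelled GGGCGG and the E-box spelled CACGTG, with N for any base. A match on the other strand reads in reverse complement. Hmgcs1 lies on the plus strand (chr13:119690101-119690400), Cyp51 on the minus strand (chr5:4104648-4104947) and Insig1 on the plus strand (chr5:28071162-28071461).
Hmgcs1: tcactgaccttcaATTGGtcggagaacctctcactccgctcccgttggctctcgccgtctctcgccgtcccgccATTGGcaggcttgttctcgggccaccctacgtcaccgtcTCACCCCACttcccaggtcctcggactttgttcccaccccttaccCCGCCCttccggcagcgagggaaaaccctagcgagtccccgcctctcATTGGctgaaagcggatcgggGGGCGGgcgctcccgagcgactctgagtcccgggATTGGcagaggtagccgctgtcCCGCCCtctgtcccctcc
Cyp51: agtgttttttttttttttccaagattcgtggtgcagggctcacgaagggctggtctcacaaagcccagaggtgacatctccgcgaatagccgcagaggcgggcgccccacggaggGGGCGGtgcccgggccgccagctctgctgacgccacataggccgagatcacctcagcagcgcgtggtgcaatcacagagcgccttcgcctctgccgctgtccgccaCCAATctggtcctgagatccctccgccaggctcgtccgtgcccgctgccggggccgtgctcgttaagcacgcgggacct
Insig1: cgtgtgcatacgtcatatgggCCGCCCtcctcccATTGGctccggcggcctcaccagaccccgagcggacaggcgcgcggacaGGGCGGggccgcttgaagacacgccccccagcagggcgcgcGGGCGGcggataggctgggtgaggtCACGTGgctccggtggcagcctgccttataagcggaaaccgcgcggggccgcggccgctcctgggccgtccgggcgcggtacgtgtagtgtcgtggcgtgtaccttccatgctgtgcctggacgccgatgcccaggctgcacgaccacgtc

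The Hmgcs1 promoter held 1 sterol regulatory element, with its first base at −137 from the start site, besides 4 CCAAT boxes and 3 GC boxes. Of all 32851 RefSeq promoters of this length, 1.24% held the element, 37.4% a CCAAT box, 35.7% a GC box and 7.15% the E-box. Cyp51 had 1 CCAAT box and 1 GC box, and Insig1 had 1 CCAAT box, 3 GC boxes and 1 E-box. Srebf2 had 1 CCAAT box and 5 GC boxes and Idi1 2 CCAAT boxes and 1 GC box, and neither these nor Cyp51 and Insig1 held these exact letters of the sterol regulatory element in this window. No matches of different motifs shared bases in the printed sequences.

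The arrays differed in slide and in brightness. The fibre arrays VCF 3 and CCF 3 shared slide 2 with control 3, and RCF 2 and RCF 3 shared slide 3, scanned on another day, with control 4 and control 5. The remaining arrays (VCF 1 and VCF 2, CCF 1 and CCF 2, RCF 1, control 1 and control 2) were on slide 1. VCF 1, CCF 2 and RCF 1 were dim, with a 75th percentile of intensity of 277, 323 and 375 against 891 to 2953 on the other arrays. All 10 markers of alveolar type 2 cells, which mark lung tissue, were well above background on all arrays. Levels are log2 of the processed intensity minus the array's 75th percentile, so that 0 is that percentile, and they compare arrays for a gene but not one gene with another. Differences are in log2, with the standard error of limma's fit over all genes after ±, for n = 3 fibre arrays against n = 5 control arrays, or 3 against 3 between fibres.

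None of the 7 genes passed limma's threshold of an adjusted p under 0.05 against control with any of the fibres. Over all genes tested, 0.0851% passed in VCF, 5.99% in CCF and 0.154% in RCF. At an unadjusted p under 0.05 there was 1 of the 7 in VCF, 0 in CCF and 3 in RCF, against 9.96%, 23.7% and 12.9% of all genes. The largest differences were those of Cyp51 and Srebf2 in RCF lungs, where both genes lay below every control array.

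Hmgcs1, the synthase that makes HMG-CoA, had levels of 3.82, 4.01 and 3.95 in VCF lungs, 3.78, 3.88 and 3.98 in CCF lungs and 3.54, 3.68 and 3.65 in RCF lungs, against 3.95, 4.18, 4.03, 3.79 and 3.59 in control lungs. The 3 RCF arrays lay below all VCF and all CCF arrays, but control 5 lay among them. The difference from control was 0.020 ± 0.14 in VCF, −0.028 ± 0.14 in CCF and −0.28 ± 0.14 in RCF (limma adjusted p = 0.987, 0.934 and 0.416). The 95% interval in RCF ran from −0.58 to 0.016. Both RCF arrays on slide 3 were close to that slide's controls, with a difference of −0.024, and RCF 1 stood −0.52 from the controls of slide 1.

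Idi1, the isomerase of isopentenyl diphosphate, had levels of 2.12, 2.38 and 2.29 in VCF lungs, 1.81, 2.47 and 2.27 in CCF lungs and 1.89, 2.33 and 2.46 in RCF lungs, against 2.21, 2.17, 1.84, 2.26 and 2.21 in control lungs. The groups overlapped, with 1 low array each in CCF, RCF and control and none in VCF. The differences were 0.12 ± 0.18 in VCF, 0.041 ± 0.18 in CCF and 0.090 ± 0.18 in RCF (adjusted p = 0.915, 0.926 and 0.910).

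Fdps, which joins the units into farnesyl diphosphate, had levels of 3.06, 3.38 and 3.30 in VCF lungs, 3.06, 3.54 and 3.39 in CCF lungs and 3.51, 3.12 and 3.15 in RCF lungs, against 3.43, 3.69, 3.17, 3.29 and 3.15 in control lungs. The groups overlapped fully, and RCF 1 stood above the other RCF arrays. The differences were −0.098 ± 0.17, −0.015 ± 0.17 and −0.084 ± 0.17 in VCF, CCF and RCF (adjusted p = 0.932, 0.971 and 0.911).

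**Figure D1:**
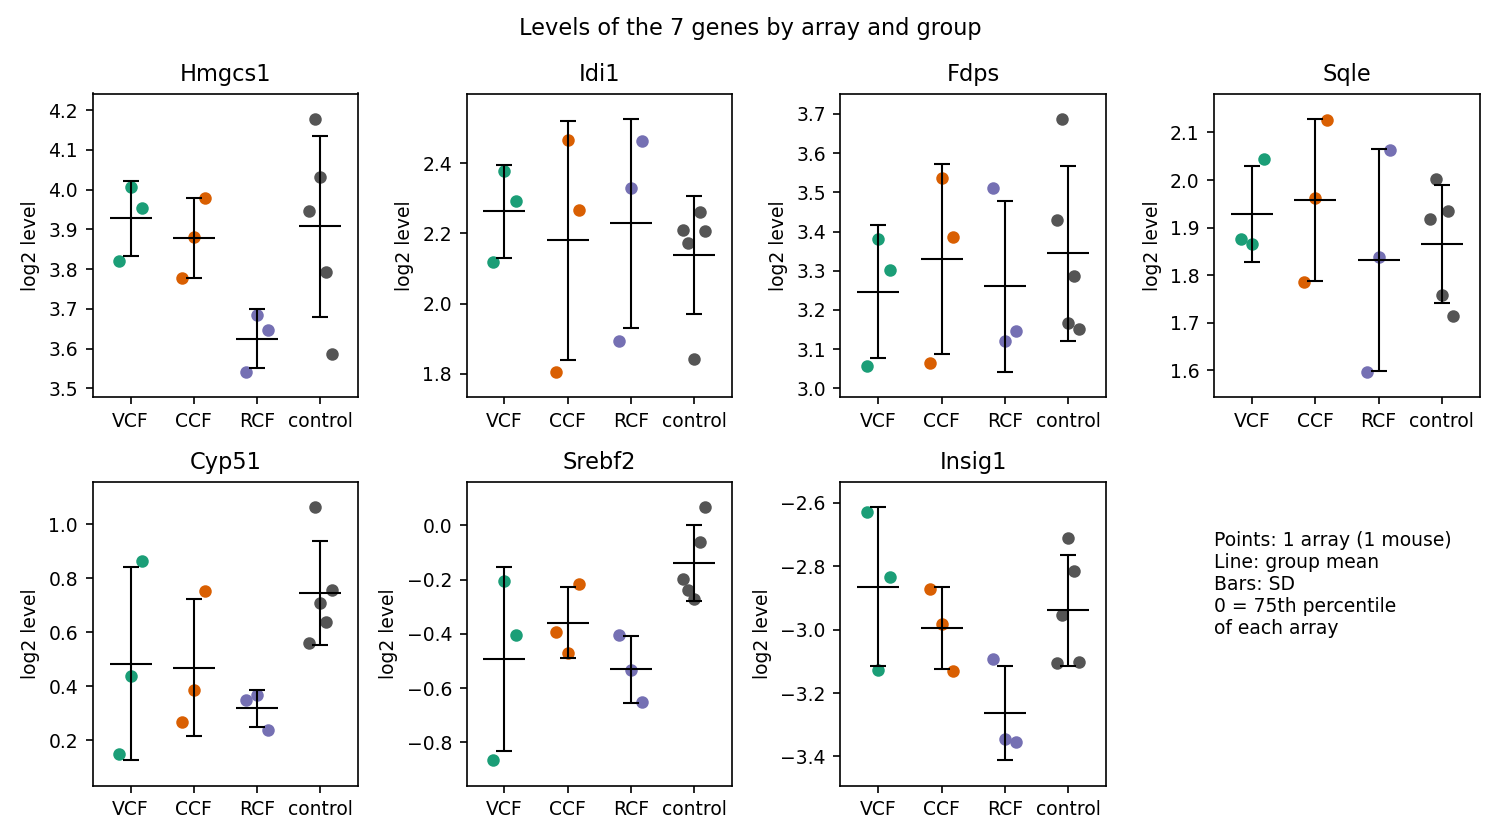
Level of each gene (log2 of the processed intensity minus the array's 75th percentile, y axis) in VCF, CCF, RCF and control lungs (x axis). Points are arrays, horizontal lines group means and bars SD, with n = 3, 3, 3 and 5; RCF arrays of Cyp51 (0.24 to 0.37) and Srebf2 (−0.65 to −0.41) lie below all control arrays, and the other genes overlap with control.

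Sqle, the epoxidase that acts on squalene, had levels of 1.88, 1.86 and 2.04 in VCF lungs, 1.79, 1.96 and 2.13 in CCF lungs and 1.60, 1.84 and 2.06 in RCF lungs, against 1.92, 2.00, 1.76, 1.93 and 1.71 in control lungs. It was among the most even of the set, with differences of 0.063 ± 0.14, 0.093 ± 0.14 and −0.033 ± 0.14 in VCF, CCF and RCF (adjusted p = 0.950, 0.749 and 0.965). The 95% intervals of the 3 comparisons lay between −0.33 and 0.39.

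Cyp51, the lanosterol demethylase, had levels of 0.15, 0.44 and 0.86 in VCF lungs, 0.27, 0.39 and 0.75 in CCF lungs and 0.35, 0.37 and 0.24 in RCF lungs, against 0.56, 1.06, 0.71, 0.64 and 0.76 in control lungs. The RCF arrays kept together below control, while VCF 3 and CCF 3, both on slide 2, lay inside the control range. The differences were −0.26 ± 0.18 in VCF, −0.28 ± 0.18 in CCF and −0.43 ± 0.18 in RCF, 1.34-fold lower in RCF (adjusted p = 0.715, 0.386 and 0.330). The interval in RCF ran from −0.81 to −0.038. Within slide 1 RCF stood at −0.46 and within slide 3 at −0.39 from control.

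The other Cyp51 probe was dim, at a mean of −4.06 in VCF, −3.94 in CCF, −4.52 in RCF and −4.33 in control, and was not well above background on VCF 1. It stood at 0.27 ± 0.44 in VCF, 0.39 ± 0.44 in CCF and −0.19 ± 0.44 in RCF against control, on the other side of 0 from the brighter probe in VCF and CCF and on the same side in RCF. The values of this probe spread far more than those of the probe used, with an SD of 1.11 over the RCF arrays, so it sets no closer limit on the difference.

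Srebf2, which encodes SREBP-2, had levels of −0.87, −0.21 and −0.40 in VCF lungs, −0.39, −0.47 and −0.21 in CCF lungs and −0.41, −0.53 and −0.65 in RCF lungs, against −0.20, −0.24, −0.27, −0.062 and 0.067 in control lungs. All fibre arrays lay below the control mean, and in RCF all 3 lay below every control array. The differences were −0.35 ± 0.16 in VCF, −0.22 ± 0.16 in CCF and −0.39 ± 0.16 in RCF, 1.31-fold lower in RCF (adjusted p = 0.482, 0.437 and 0.303). The VCF difference leaned on the dim array VCF 1, without which it was −0.16 (adjusted p = 0.711). In RCF the difference was −0.19 within slide 1 and −0.60 within slide 3.

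Insig1, the sterol-sensing anchor that retains SREBP precursors and is itself an SREBP target, had levels of −2.63, −3.13 and −2.84 in VCF lungs, −2.87, −2.98 and −3.13 in CCF lungs and −3.09, −3.35 and −3.35 in RCF lungs, against −3.11, −2.95, −2.71, −2.81 and −3.10 in control lungs. RCF 2 and RCF 3 were the lowest of all arrays and RCF 1 lay inside the control range. The differences were 0.074 ± 0.15, −0.058 ± 0.15 and −0.33 ± 0.15 in VCF, CCF and RCF (adjusted p = 0.945, 0.871 and 0.382). Within slide 1 RCF stood at −0.061 and within slide 3 at −0.39 from control.

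**Figure D2:**
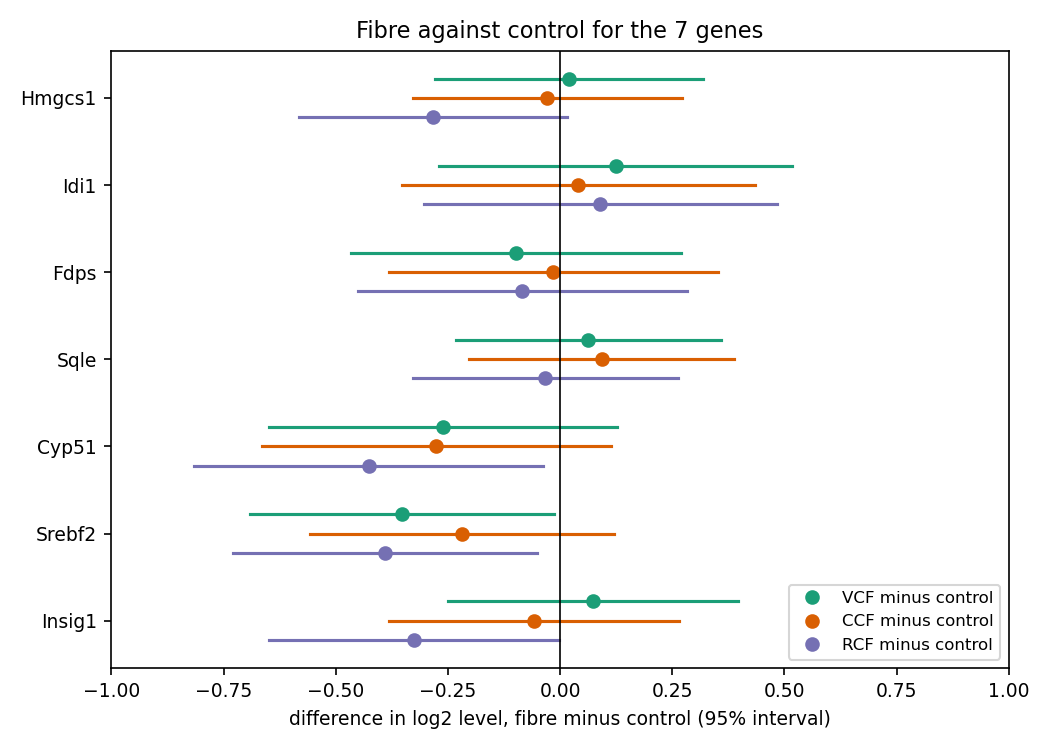
Difference in log2 level of each gene between VCF, CCF or RCF lungs and control lungs (x axis), with points for limma's estimate and lines for its 95% interval, unadjusted. Most intervals include 0, and those of Cyp51, Srebf2 and Insig1 in RCF and of Srebf2 in VCF end below 0; no gene passed after adjustment.

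Of the 7 genes, 2 lay wholly below control in RCF, Cyp51 and Srebf2, where 3.77% of all genes with a value on each array did. In VCF and CCF all 7 overlapped with control, where 7.38% and 16.3% of all such genes did not. The median difference over the 7 genes was 0.020 in VCF, −0.028 in CCF and −0.28 in RCF, and over all genes −0.0028, −0.0033 and 0.064. Within slide 1 the RCF median was −0.30 and within slide 3 it was −0.084, each from 1 or 2 arrays a group. The end of a 95% interval farthest from 0 stood at 1.61-fold in VCF, 1.58-fold in CCF and 1.76-fold in RCF. Changes of a single gene within its interval were not excluded with this number of arrays.

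**Figure D3:**
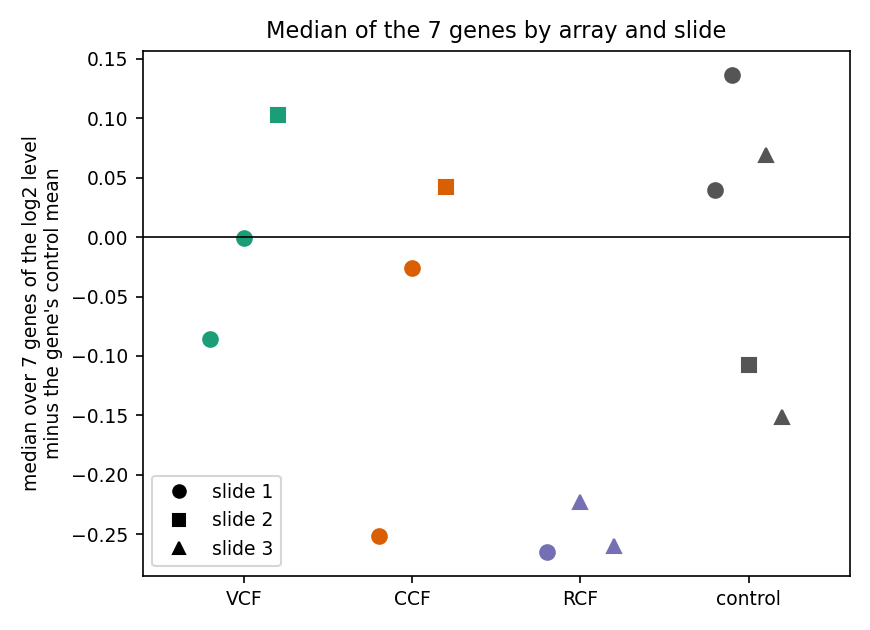
Median over the 7 genes of the level minus the gene's control mean (log2, y axis) for each array by group (x axis), with the symbol giving the slide. RCF arrays stood between −0.26 and −0.22, CCF 1 at −0.25, and the control arrays between −0.15 and 0.14.

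Set against each other, the fibres gave no call among the 7 genes, where 0.222% of all genes passed for CCF against VCF, 0.00982% for RCF against VCF and 0.00327% for RCF against CCF. Insig1 stood lower in RCF than in VCF by a difference of −0.40 ± 0.17 (limma adjusted p = 0.498, 95% interval −0.76 to −0.039), the only member with an unadjusted p under 0.05, as had 9.05% of all genes. Of the 7 genes 1, Hmgcs1, did not overlap between RCF and VCF, with RCF lower at −0.30 ± 0.15 (adjusted p = 0.596), where 15.5% of all genes did not. Hmgcs1 also lay wholly lower in RCF than in CCF, at −0.26 ± 0.15 (adjusted p = 0.646), where 7.13% of all genes did. RCF 2 and RCF 3 were on slide 3, which held no VCF or CCF array, so for them fibre and slide cannot be told apart. Control Hmgcs1 was lower on slide 3 too (3.79 and 3.59 against 3.95, 4.18 and 4.03). Within slide 1, RCF 1 stood at −0.37 from VCF and −0.29 from CCF for Hmgcs1, and at −0.21 from VCF for Insig1. With slide in the fit, fixed or random, 0 of the 7 genes had an unadjusted p under 0.05 for RCF against VCF. Between CCF and VCF the differences of the 7 genes ran no further than 0.13 in either direction, with 95% intervals inside −0.52 to 0.51.

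With group means removed, the 5 enzymes varied together over the 14 arrays. All 10 pairs among Hmgcs1, Idi1, Fdps, Sqle and Cyp51 had a positive Pearson r, from 0.14 to 0.69 with a median of 0.43, and Idi1 and Sqle were the closest pair. All 6 pairs with Insig1 were negative, from −0.66 with Idi1 to −0.12 with Hmgcs1. Insig1 rests on a single weak probe, though it was well above background on all arrays. Its intensity was 45, 41 and 44 on the dim arrays VCF 1, CCF 2 and RCF 1, and 115 to 291 on the others. On the same dim arrays the Cyp51 probe used read 307, 422 and 478. The bearing of this weak signal on the Insig1 pairs was not tested beyond the removal of brightness given below. Srebf2 was positive with 3 of the 5 enzymes, most with Cyp51 at 0.43. With slide means removed too, the 10 enzyme pairs ran from 0.35 to 0.77 and the Insig1 pairs from −0.63 to −0.36. With group means removed, the r with the brightness of the array (log2 of its 75th percentile) was −0.46 for Insig1, −0.44 for Fdps, 0.40 for Srebf2, 0.34 for Sqle, 0.23 for Idi1 and Cyp51 and 0.072 for Hmgcs1. With brightness removed as well, a step added after the data were seen, the 10 enzyme pairs ran from 0.12 to 0.67 and the Insig1 pairs from −0.64 to −0.10. These are descriptions over arrays that share a scaling and a slide, and over all pairs of genes the mean r was 0.012.

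**Figure D4:**
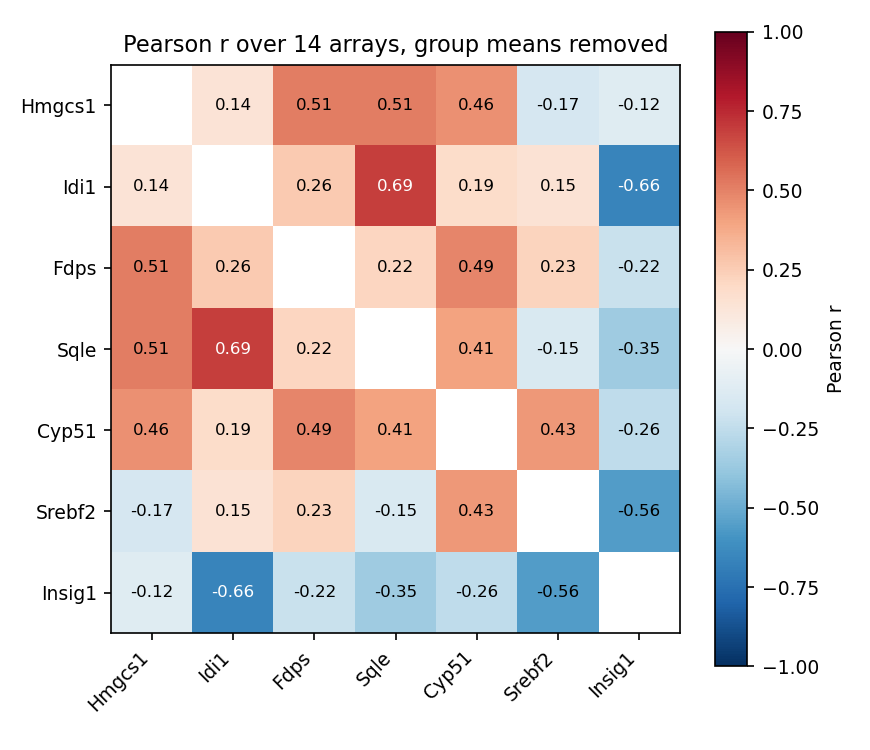
Pearson r between each pair of the 7 genes (rows and columns) over the 14 arrays with group means removed, coloured from −1 (blue) to 1 (red). The block of 5 enzymes is positive throughout (0.14 to 0.69), and the row of Insig1 is negative throughout (−0.66 to −0.12).

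The variation was small. The SD within groups was 0.16 for Hmgcs1 and Sqle, 0.18 for Insig1, 0.19 for Srebf2, 0.22 for Fdps, 0.23 for Cyp51 and 0.24 for Idi1, against a median of 0.38 over all genes. All 15 other enzymes of the pathway that were measured had a positive r with the mean of the 5 enzymes, at a median of 0.31, where the median over all genes was −0.062 and 42.4% were positive, and 14 of the 15 stayed positive with slide means removed. Sc5d, the sterol desaturase, was highest at 0.72, followed by the mevalonate kinase Mvk at 0.54. The mean of the 15 followed the mean of the 5 at r of 0.82 and a Spearman rho of 0.80, at r of 0.84 without the 2 arrays farthest from the median, control 2 and CCF 1, and at 0.81 with slide means removed. The proliferation markers followed the mean of the 7 genes about as closely gene by gene, at a median r of 0.39 (9 of 10 positive), as the 15 enzymes at 0.38, while the mean over each list followed it at 0.54 for these markers and 0.88 for the enzymes.

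**Figure D5:**
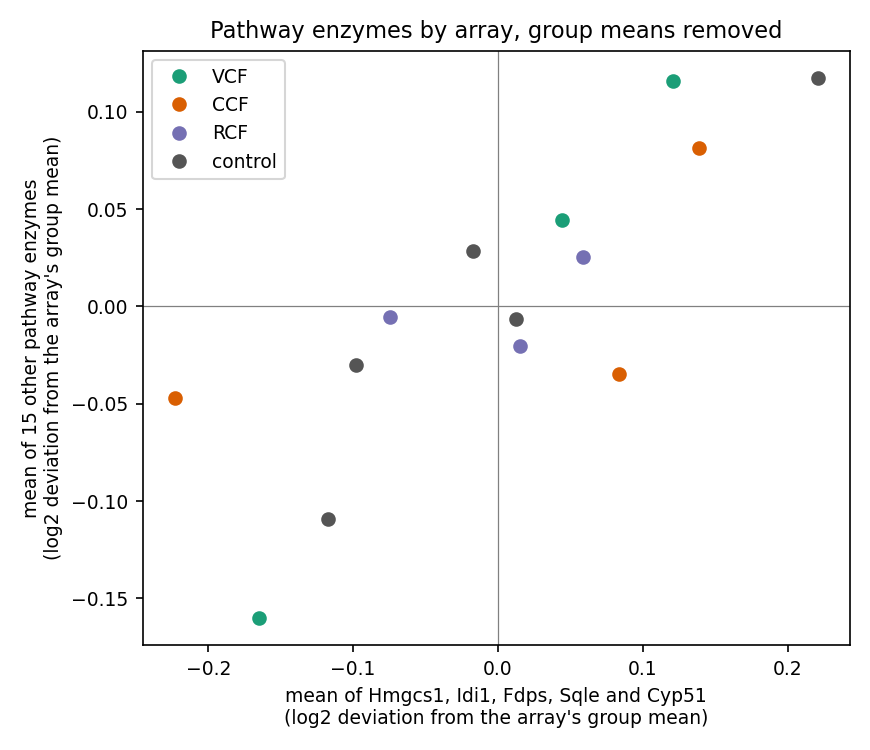
Mean of the 15 other pathway enzymes (y axis) against the mean of Hmgcs1, Idi1, Fdps, Sqle and Cyp51 (x axis), both as log2 deviation from the array's group mean, with 1 point per array coloured by group. The points lie along a rising line (r of 0.82, n = 14), with control 2 at the right end and CCF 1 at the left.

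The genes whose levels followed the mean of the 7 most closely, among 15626 named genes and with group means removed, were Plcd1, a phospholipase C, at r of 0.89, Vamp7, a vesicle SNARE, at 0.88, Rhbg, an ammonia transporter, at 0.86, and Papln and Olfr1372-ps1, both at 0.86. The lowest were Morn3 at −0.88, Ctnna2 at −0.83 and Epb41l4a at −0.82. These are the ends of a ranking over 14 arrays.

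Over the whole list of 20 measured enzymes of the pathway, which holds the 5 above, 0 passed in VCF and RCF. In CCF 2 passed, where 5.99% of all genes did, and of these Ggps1 is described. Ggps1, which makes geranylgeranyl diphosphate, rose by 0.63 ± 0.12 in CCF (1.55-fold, limma adjusted p = 0.0152), with levels of 1.16, 1.35 and 1.22 in CCF against 0.50, 0.58, 0.65, 0.61 and 0.72 in control. Its 4 other probes stood between −0.37 and 0.19, and the mean over its probes was 0.082 (adjusted p = 0.804). The Ggps1 call was lost without CCF 2 (adjusted p = 0.0699). With the probe used, Ggps1 stood at 0.43 ± 0.12 from control in VCF and in RCF too (limma adjusted p = 0.207 and 0.152). Its VCF and RCF arrays lay above every control array, as did 3.46% and 7.62% of all genes. CCF stood at 0.20 ± 0.13 from VCF (adjusted p = 0.553).

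In RCF 15 of the 20 enzymes had a negative difference, with a list median of −0.19, against −0.14 in VCF and −0.021 in CCF. At an unadjusted p under 0.05 there were 5 lower and 1 higher in RCF, 3 lower and 2 higher in VCF, and 4 lower and 1 higher in CCF, against the 12.9%, 9.96% and 23.7% of all genes given above, so the 5 of 20 in CCF lay near the share of the whole array. Mvd, the mevalonate diphosphate decarboxylase, stood at −0.29 ± 0.19 in VCF, −0.60 ± 0.19 in CCF and −0.57 ± 0.19 in RCF (adjusted p = 0.690, 0.0805 and 0.221). Ebp, the sterol isomerase, stood at −0.19 ± 0.15, −0.47 ± 0.15 and −0.43 ± 0.15 (adjusted p = 0.784, 0.0853 and 0.245). Both lay below every control array in CCF and in RCF, as did 6.46% and 3.77% of all genes with a value on each array. Pmvk, the phosphomevalonate kinase, went the other way in VCF at 0.69 ± 0.17 (adjusted p = 0.164), with levels of 4.21, 4.55 and 4.23 in VCF against 3.42, 4.01, 3.61, 3.31 and 3.87 in control.

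Among 11 genes of SREBP control, which hold Srebf2 and Insig1, 1 passed, in CCF, where 5.99% of all genes did. Mbtps2, the protease that makes the last cut in SREBP, rose by 0.78 ± 0.14 (1.72-fold, adjusted p = 0.0140), with levels of 0.21, 0.10 and 0.30 in CCF against −0.42, −0.55, −0.29, −0.71 and −0.90 in control. Its other probe, well above background on 4 arrays, stood at 0.21 ± 0.51, and the mean over its probes was 0.49 (adjusted p = 0.325). With the probe used, Mbtps2 stood at 0.32 ± 0.14 in VCF and 0.34 ± 0.14 in RCF (adjusted p = 0.469 and 0.321). Srebf1, the partner factor that drives fatty acid genes, stood at −0.29 ± 0.14 in VCF, −0.44 ± 0.14 in CCF and −0.47 ± 0.14 in RCF (adjusted p = 0.530, 0.0859 and 0.186). Its CCF and RCF arrays lay below every control array, as did 6.46% and 3.77% of all genes. Insig2, the other INSIG, stood at 0.011 ± 0.092 in VCF, 0.26 ± 0.092 in CCF and 0.29 ± 0.092 in RCF (adjusted p = 0.989, 0.112 and 0.204). Its CCF and RCF arrays lay above every control array, as did 9.89% and 7.62% of all genes.

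Of the 12 uptake and transport genes 1 passed, again in CCF, against 5.99% of all genes. Osbpl2, an oxysterol-binding lipid transfer protein, rose by 0.78 ± 0.15 (1.72-fold, adjusted p = 0.0173), with levels of 3.00, 2.83 and 2.77 in CCF against 2.28, 2.05, 2.19, 2.12 and 1.79 in control. Without CCF 1 or CCF 2 its adjusted p was 0.0626 or 0.0627. Osbpl2 stood at 0.11 ± 0.15 in VCF and 0.31 ± 0.15 in RCF (adjusted p = 0.903 and 0.419). The list median was −0.094 in VCF, 0.0068 in CCF and −0.023 in RCF.

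In CCF 1 of 11 genes of cholesterol efflux and storage passed and 1 of 13 genes of fatty acid synthesis, against 5.99% of all genes. Of the efflux and storage genes, Soat1, which esterifies cholesterol for storage, fell in CCF by 2.18 ± 0.43 (4.53-fold, adjusted p = 0.0189). Its levels were −1.72, −0.96 and −0.40 in CCF against 1.41, 0.015, 1.34, 1.52 and 1.50 in control. The 3 other Soat1 probes stood at 0.12, 0.20 and −0.50, none past the threshold, and the mean over its probes was −0.59 (adjusted p = 0.125). The Soat1 call was lost without control 4, CCF 1 or CCF 2 (adjusted p = 0.0502 to 0.0702). With the probe used, Soat1 stood at −0.58 ± 0.43 in VCF and −1.29 ± 0.43 in RCF (adjusted p = 0.751 and 0.224). Of 13 genes of fatty acid synthesis, Elovl6, which elongates palmitate, fell in CCF by 3.05 ± 0.57 (8.26-fold, adjusted p = 0.0155), from a single probe, with levels of 0.54, 1.41 and −0.13 in CCF against 3.35, 3.91, 2.42, 4.09 and 4.50 in control. With group means removed, Elovl6 followed at r of 0.98 the mean of 8 genes of varied function, chosen with earlier results known (Rhox3a, Dmrtb1, Vpreb2, Mrgprg, Fgf2, Itga1, Lypd6b and Klra1). Against that mean Mbtps2 stood at −0.66, Osbpl2 at −0.60, Ggps1 at 0.23 and Soat1 at −0.013. Cyp51 stood at −0.59 and Hmgcs1 at −0.51, and the other members ran from −0.39 for Srebf2 to 0.33 for Idi1. The set of 8 was chosen after results of these data were known, and no value over all genes is set beside these r values. They are a description and not a test. The Elovl6 call was lost without CCF 1 or CCF 3 (adjusted p = 0.0517 and 0.0560). Elovl6 stood at −1.04 ± 0.57 in VCF and −1.17 ± 0.57 in RCF (adjusted p = 0.596 and 0.415). Scd1, the desaturase of stearate, stood at −1.39 ± 0.26 in VCF (adjusted p = 0.0816), with levels of 3.12, 3.39 and 3.47 in VCF against 4.22, 5.67, 4.62, 4.43 and 4.63 in control. Without the 3 dim arrays the calls of Ggps1, Mbtps2, Osbpl2 and Soat1 in CCF were lost (adjusted p = 0.0716, 0.0593, 0.0538 and 0.0682), and without the filter on dim probes those of Ggps1 and Osbpl2 (0.0579 and 0.0566).

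Markers of lung cells moved in the same comparisons. Alveolar macrophage markers had a positive difference in 10 of 10 genes in CCF, at a median of 0.28 with 1 called, and in 10 of 10 in RCF, at a median of 0.35 with 0 called, and their summed level was 7.15 to 7.46 in CCF and 7.16 to 7.32 in RCF against 6.91 to 7.19 in control. The summed level of the endothelial markers was 7.88 to 8.09 in VCF, 8.01 to 8.14 in CCF and 7.88 to 8.03 in RCF against 8.13 to 8.30 in control, wholly below control in VCF and RCF. Of the 8 endothelial markers 1 was called lower in VCF, 1 was called higher in CCF and 0 were called in RCF, where 6 had a negative difference. Alveolar type 2 markers had a median of −0.085 in RCF with 0 of 10 called, and a summed level of 9.42 to 9.73 in RCF against 9.40 to 9.99 in control. In CCF, 4 of 10 neutrophil markers were called lower, with a summed level of 6.92 to 7.31 in CCF against 7.51 to 7.96 in control, and in VCF it was 8.15 to 8.71 with 0 of 10 called. Proliferation markers had 2 of 10 called lower in VCF, at a summed level of 1.13 to 1.29 in VCF against 1.79 to 2.38 in control. In CCF 10 of 10 of them had a positive difference with 1 called, at a summed level of 2.26 to 2.44. Over all genes 0.0851% were called in VCF, 5.99% in CCF and 0.154% in RCF. The part of these cells in the values of the 7 genes was not tested.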

How the data were processed

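Intensities come from Agilent one-colour arrays read with Feature Extraction 10.7.3.1, per the file headers, which background-subtracted and detrended the deposited processed signal and did not scale it between arrays. The authors' deposited log2 table equals log2 of that signal minus 1 constant per array, within a tolerance of 0.01, with some values blank. The sources used here name no software for that table.

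From the processed intensity, log2 was taken and each array's 75th percentile over non-control spots was subtracted. Outlier spots were left out and spots of a probe averaged. Probes well above background on at least 3 arrays were kept (37970 of 56605). Symbols came from RefSeq accessions, with the brightest probe of a gene used. The array design is older than the annotation, so probe positions are not given. Limma 3.58.1 in R 4.3.3 was fitted once to 14 arrays and 4 groups without covariates, with two-sided moderated tests and Benjamini-Hochberg adjustment over all genes. On simulated data the fit was checked. The number of arrays limits precision.

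The genes and the 13 lists (142 entries, 140 tested) were chosen with earlier results of these data known, as were the 8 genes that Elovl6 was set against. 1 pathway gene past the threshold in CCF is not reported here. Named were the 7 genes, other genes of the pathway lists past the threshold, those of smallest p per list and comparison with control, of which the text gives those of clearest function, and the ends of the ranking by correlation. Alternatives were normexp with offset 50 on the median spot signal and quantile scaling (the mean signal was not used here), the deposited table, other filters, the mean over probes, slide or replicate number as a block, and leaving out arrays.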

Additional observations from a re-analysis of the deposited data

Results flagged for a closer look

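Idi1 stood at 1.84 on control 3, where the other control arrays ranged from 2.17 to 2.26. This gap was 0.789 of the range of the 5 control arrays, above Dixon's 95% value of 0.71. Chance gives such a gap in about 1 of 20 groups, and the 7 genes were each examined in control only, since the other groups hold 3 arrays. The low value lies close to CCF 1 (1.81) and RCF 1 (1.89).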

How the results depend on the processing

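None of the 7 genes passed limma's threshold in any of the 6 comparisons under any alternative. At an unadjusted p under 0.05 there were 0 to 1 of them in VCF, 0 in CCF and 0 to 4 in RCF against control. Over all alternatives the median of the 7 genes in RCF against control was −0.34 to −0.21. The differences of Hmgcs1, Insig1, Cyp51 and Srebf2 in RCF, of Sqle, Idi1, Fdps and Srebf2 in VCF and of Sqle and Srebf2 in CCF kept their sign under every alternative.

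With replicate number as a block, which takes no information from control 4 and 5, the median of the 7 genes in VCF was −0.12 and Hmgcs1 in VCF stood at −0.12. Under that block 0 genes of all were called in VCF, 2 in CCF and 0 in RCF against control, and 0 for both CCF and RCF against VCF, so each of the 6 pathway calls was lost (adjusted p = 0.101 to 0.127). The labels state no pairing by number, so the block was kept as an alternative. In deviations from the group means 12 of 18 pairs with the same number in different groups correlated above 0.1 (median r 0.18). Of the other pairs 11 of 54 did (median −0.035), and 5 of the 12 arrays numbered 1 to 3 correlated best with an array of their own number. All arrays numbered 1 were on slide 1, so number and slide overlap in part. Hmgcs1 in VCF stood at −0.059 with slide as a fixed block and −0.024 as a random block. With the mean over probes Cyp51 was 0.0024 in VCF and 0.056 in CCF, where the dim probe enters. With normexp and quantile scaling Hmgcs1 was 0.090 and Fdps 0.044 in CCF. Without the 3 dim arrays Insig1 was −0.043 in VCF, Idi1 −0.10 in CCF and Sqle 0.085 in RCF, and the median in RCF against VCF was −0.29.

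Leaving out 1 array at a time, Hmgcs1 ran from −0.060 to 0.088 and Insig1 from −0.043 to 0.21 in VCF. In CCF Hmgcs1 ran from −0.11 to 0.040, Insig1 from −0.12 to 0.010, Idi1 from −0.10 to 0.23 and Fdps from −0.12 to 0.12. In RCF Sqle ran from −0.15 to 0.085, Idi1 from −0.027 to 0.26 and Fdps from −0.21 to 0.0021. The median of the 7 genes ran from −0.064 to 0.10 in CCF against VCF and from −0.23 to −0.019 in RCF against VCF. The cause of these shifts was not tested.

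The number of genes called over the whole array moved more. Without the filter on dim probes it was 0 in VCF, 372 in CCF, 0 in RCF, 23 for CCF against VCF and 0 for RCF against VCF. With probes above background on all arrays it was 96 in VCF, 195 in RCF, 188 for CCF against VCF and 10 for RCF against VCF, and with the mean over probes 24 in RCF. With slide as a fixed block it was 457 in RCF, 563 for CCF against VCF and 7 for RCF against VCF, and as a random block 95, 2952 and 468 in VCF, CCF and RCF and 655 for CCF against VCF. Without the 3 dim arrays it was 1, 418 and 1 in VCF, CCF and RCF, and 0 for both CCF and RCF against VCF. RCF against VCF gave 0 with normexp and quantile scaling. RCF against CCF gave 0 under every alternative other than the replicate block and the omission of 1 array. With 1 array left out, the counts ran from 0 to 28 in VCF, 258 to 2716 in CCF, 0 to 55 in RCF, 21 to 30 for CCF against VCF, 0 to 26 for RCF against VCF and 0 to 25 for RCF against CCF. In the 29 cases with a count of 0, limma gave 1708 to 4295 genes an unadjusted p under 0.05.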
